A study of Homo sapiens with 4 samples.

Results

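The genes of hydrogen sulfide production and oxidation were examined in clones of SW620, a human colon cancer cell line that was derived from a lymph node metastasis. The members are 7 genes, SQOR, ETHE1, TST, SUOX, CBS, CTH and MPST, taken as every probe set that the platform's annotation assigns to one of them. This gave 11 of the 54675 probe sets on the array, and 7 of the 19777 genes named by a probe set of their own. The topic was selected on its measured log2 differences between the clones, SQOR among them, and that is the only contrast in the series. Their values are therefore given as a description, with a standard error and without a test of their own.

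The groups were a CD133+ clone (CPC1), with 2 arrays, and a CD133- clone (CNC1), with 2 arrays. Both came from SW620 cells sorted with magnetic beads for CD133, a surface protein used to mark colon cancer stem cells. Single sorted cells were grown into clones in the parent line's medium with serum, and the clone cells were purified by CD133 once more before RNA extraction. Each group is 1 clone, so CD133 status and clone cannot be told apart, and the labels do not state whether the 2 arrays of each clone are from different cultures. The spread between the 2 arrays of a clone may thus be technical.

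Hydrogen sulfide is a gas made by cells from sulfur amino acids and, in the colon, also by gut bacteria. CBS (cystathionine beta-synthase) and CTH (cystathionine gamma-lyase) form the transsulfuration pathway from homocysteine to cysteine and release sulfide in side reactions, while MPST (mercaptopyruvate sulfurtransferase) draws sulfur from a cysteine breakdown product. SQOR (sulfide quinone oxidoreductase) begins sulfide removal at the inner mitochondrial membrane, where it passes electrons to ubiquinone. ETHE1 (persulfide dioxygenase), TST (thiosulfate sulfurtransferase, or rhodanese) and SUOX (sulfite oxidase) then carry the sulfur to thiosulfate and sulfate. Colon epithelium is a tissue in which this oxidation route is known to be active.

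The sequences just upstream of a RefSeq start of SQOR and of CBS are shown because these are the 2 members that the all-gene fit called. Of the 7 members, 5 had at least 1 start in the RefSeq promoter table (GRCh38.p14), with 7 windows in all, and each window below is the 250 bases before a start, read 5′ to 3′ along the gene. Capitals mark the GC box (GGGCGG) and the CCAAT box (CCAAT) on either strand, and neighbouring matches can run together. The SQOR window lies at chr15:45634779-45635028 on the plus strand, and the CBS window, the second of 3 for that gene, at chr21:43075836-43076085 on the minus strand. Both lie inside the annotated gene spans, 45631148 to 45691281 for SQOR and 43053191 to 43076873 for CBS. Each gene thus extends upstream of the start shown.
SQOR: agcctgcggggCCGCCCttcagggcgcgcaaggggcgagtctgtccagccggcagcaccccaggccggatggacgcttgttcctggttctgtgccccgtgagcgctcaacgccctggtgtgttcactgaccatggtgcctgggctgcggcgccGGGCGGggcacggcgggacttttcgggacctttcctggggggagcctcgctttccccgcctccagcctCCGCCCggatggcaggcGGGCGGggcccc
CBS: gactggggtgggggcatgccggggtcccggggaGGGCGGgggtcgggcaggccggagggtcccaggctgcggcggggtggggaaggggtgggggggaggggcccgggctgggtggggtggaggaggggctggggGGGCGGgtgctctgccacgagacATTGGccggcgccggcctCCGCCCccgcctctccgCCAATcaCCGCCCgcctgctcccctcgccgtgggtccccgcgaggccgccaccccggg
The SQOR window held 4 GC boxes and 0 CCAAT boxes, and its GC content was 73.2%, against a median of 58% over 35116 windows of the same length. The CBS window shown held 4 GC boxes and 2 CCAAT boxes, and was picked as the richest of the 3: the first held 1 GC box and 0 CCAAT boxes, and the third held 0 and 1. The ETHE1 window held 4 GC boxes and 0 CCAAT boxes, that of CTH 2 and 1, and that of SUOX 0 and 2. A GC box occurred in 42.6% and a CCAAT box in 32% of all windows, so neither is rare. The antioxidant response element core (TGACNNNGC, in 10.9% of windows on either strand) matched only the first CBS window, and the amino acid response element (TGATGNAAN, in 3.13%) and the TATA box (TATAAA, in 10.7%) matched none of the 7. The arrays measured transcript levels and hold no measurement at these sequences.

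As a check of the labels, PROM1, which encodes CD133, had log2 signals of 8.46 and 8.73 in the CD133+ clone against 3.31 and 3.35 in the other. Of 10 colon epithelium markers, all lay above the level filter (a mean log2 signal of 3.75), from LGALS4 at 4.71 to KRT18 at 14.09. The fibroblast markers COL1A1 (6.98) and LUM (6.42) and the leukocyte marker LYZ (6.43) lay above LGALS4, CDX1 (6.20) and CDX2 (6.22). Passing the filter therefore does not tell the cell types apart. The mean log2 signal over the endothelial markers ran from 4.15 to 4.59 on the 4 arrays, over 5 leukocyte markers from 4.49 to 4.55 and over 6 fibroblast markers from 5.15 to 5.31, and 3 of these markers (PTPRC, CDH5 and KDR) lay below the filter. Over all genes limma called 577 of 15821 (3.65%) at an adjusted p under 0.05, 207 higher and 370 lower in CD133+. The share called higher was 35.9% after quantile normalization, 21.3% in the values as deposited and 11.3% with arrays centred by their medians. Leaving out CD133- replicate 1 reduced the count to 124, leaving out the other CD133- array reduced it to 388, and a fit without a trend of variance on level gave 12.

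Of the 7 members, SQOR was lower and CBS higher in the CD133+ clone by the all-gene fit, a count of 2 of 7 beside the 3.65% of all genes, from which nothing is read, since the members were picked with this contrast known. SQOR, the entry enzyme of sulfide oxidation, was 2.85-fold lower in CD133+ cells. CBS, at the head of transsulfuration, was 1.46-fold higher. The other 5 members did not pass: ETHE1 and TST had differences of 0.31 and 0.29 on the log2 scale, CTH had -0.39, and SUOX and MPST lay within 0.07 of 0. In 4 of the 7 (SQOR, CBS, ETHE1 and TST) the arrays of the clones did not overlap, where 51.6% of all genes tested show no overlap; of the 11 probe sets it was 6, against 47.8% of all probe sets tested. The median difference was 0.017 over the 7 members and 0.058 over all genes.

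**Figure D1:**
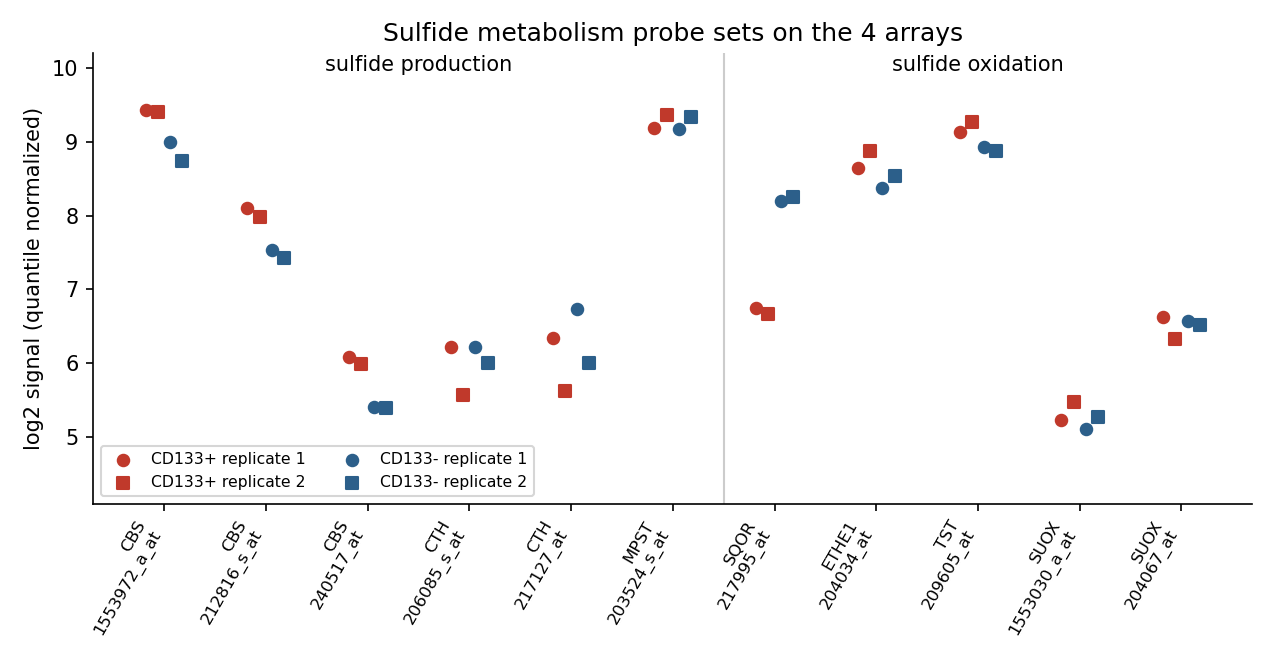
Log2 signal after quantile normalization (vertical axis) of the 11 probe sets of the 7 genes (horizontal axis) on each of the 4 arrays, CD133+ in red and CD133- in blue, with circles for replicate 1 and squares for replicate 2. SQOR is the only probe set in which both CD133- arrays (8.19 and 8.25) lie well above both CD133+ arrays (6.75 and 6.66); levels of different probe sets are not comparable with each other.

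Among the oxidation genes, SQOR had a single probe set (217995_at, gene on chromosome 15). Its log2 signal was 6.75 and 6.66 in CD133+ cells and 8.19 and 8.25 in CD133- cells, with no overlap. The nearest arrays of different clones were 1.44 apart, while arrays of the same clone differed by 0.090 in CD133+ and 0.054 in CD133-. The means were 6.71 ± 0.064 (SD, n = 2) for the CD133+ clone and, for the CD133- clone, 8.22 ± 0.038 (SD, n = 2). The difference of -1.51 (SE 0.15) corresponds to a 2.85-fold lower level in CD133+ (95% interval of the fit 2.24 to 3.62). This interval reflects the spread between arrays, not between clones, and takes no account of the selection on this contrast. In the order of differences over 15821 genes SQOR stood at place 31 from the lowest. With 1 probe set there is no second measurement of the transcript on these arrays. In the values as deposited, SQOR had 6.72 and 6.55 in CD133+ and 8.35 and 8.22 in CD133-. Arrays of the same clone were thus further apart than after quantile normalization.

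Of the 3 genes for the steps after SQOR, none passed. ETHE1, the mitochondrial dioxygenase that oxidises the persulfide SQOR makes, is encoded on chromosome 19 and had 1 probe set (204034_at). Its log2 signal was 8.65 and 8.88 in CD133+ and 8.38 and 8.53 in CD133-, so the CD133+ arrays were the higher ones, with the clones 0.11 apart at the nearest arrays. The difference was 0.31 (SE 0.13), 1.24-fold, and replicate arrays were 0.23 and 0.16 apart, more than that nearest gap. ETHE1 did not pass the all-gene threshold.

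TST, the rhodanese that handles sulfur between persulfide, sulfite and thiosulfate, had 1 probe set (209605_at). The log2 signal was 9.13 and 9.26 in CD133+ and 8.93 and 8.88 in CD133-. Both CD133+ arrays lay above both CD133- arrays, by 0.20 at the nearest. The difference was 0.29 (SE 0.11), 1.23-fold, and did not pass either.

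SUOX, the molybdenum enzyme that turns sulfite into sulfate, had 2 probe sets that differed in sign. The brighter (204067_at) had a log2 signal of 6.63 and 6.33 in CD133+ and 6.57 and 6.52 in CD133-, a difference of -0.066 (SE 0.20; 95% interval -0.53 to 0.39). The dimmer (1553030_a_at) had 5.24 and 5.48 against 5.12 and 5.28, a difference of 0.16. The clones overlapped on both probe sets, and a change of SUOX was not detectable with these arrays.

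On the production side, CBS was the member with the most probe sets, 3, and all were higher in CD133+. The brightest (1553972_a_at) had a log2 signal of 9.42 and 9.41 in CD133+ against 9.00 and 8.74 in CD133-. The probe set 212816_s_at had 8.10 and 7.99 against 7.54 and 7.42. The dimmest, 240517_at, had 6.09 and 5.99 against 5.41 and 5.39. None of the 3 overlapped between clones, and the nearest arrays were 0.41, 0.45 and 0.58 apart. The differences were 0.55 (SE 0.12), 0.56 (SE 0.15) and 0.64 (SE 0.20), the first from the gene fit and the others from the fit to all probe sets. These probe sets report on 1 gene and are not independent replicates. The call of CBS was marginal: it passed in the fit described and in 3 of 12 alternatives, and it was lost in the values as deposited (0.48), with centred arrays (0.40) and without any 1 of the 4 arrays (0.42 to 0.67). In the fit to single probe sets, which called 185 of 32873 (0.563%), SQOR passed and none of the 3 CBS probe sets did. Both genes belong to a topic selected on this contrast, so neither outcome is a test of them.

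CTH, which splits cystathionine to cysteine, varied more between replicate arrays than between clones. The brighter probe set (217127_at) had a log2 signal of 6.34 and 5.62 in CD133+ and 6.74 and 6.01 in CD133-, so replicate 1 lay above replicate 2 by 0.72 and 0.73. The second (206085_s_at) had 6.23 and 5.56 against 6.22 and 6.01, where the replicates were 0.66 and 0.21 apart. Arrays of the same number differed in 1 direction by at least 0.72 in both clones in 55 of the 15821 genes tested (0.348%). That cut is the smaller gap of CTH itself, so CTH is counted by construction and the share only ranks it. The second CTH probe set did not reach the cut. The difference between clones was -0.39 (SE 0.32; 95% interval -1.13 to 0.34), did not pass, and ran from -0.76 to -0.026 over the alternatives.

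MPST had the smallest difference of the 7. Its probe set (203524_s_at) had a log2 signal of 9.18 and 9.36 in CD133+ and 9.17 and 9.34 in CD133-. The arrays of both clones covered the same range, and the difference was 0.017 (SE 0.12; 95% interval -0.25 to 0.29). The sign was negative under both other scalings. MPST and TST are neighbours on chromosome 22 with 0 other protein-coding genes between them in RefSeq order, and their differences were 0.017 and 0.29.

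The differences depended on the scaling, and the median over all genes was 0.058 after quantile normalization, 0.028 as deposited and -0.051 with centred arrays. Centring shifts each array by a constant, so relative to that median the deposited and the centred values give the same difference by construction. The ranges below therefore compare these with quantile normalization only. Taken relative to that median, the SQOR difference lay between -1.68 and -1.57. That of CBS lay between 0.45 and 0.49, TST between 0.19 and 0.24, and ETHE1 between 0.17 and 0.25. CTH lay between -0.52 and -0.45, SUOX between -0.21 and -0.12, and MPST between -0.078 and -0.042.

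**Figure D2:**
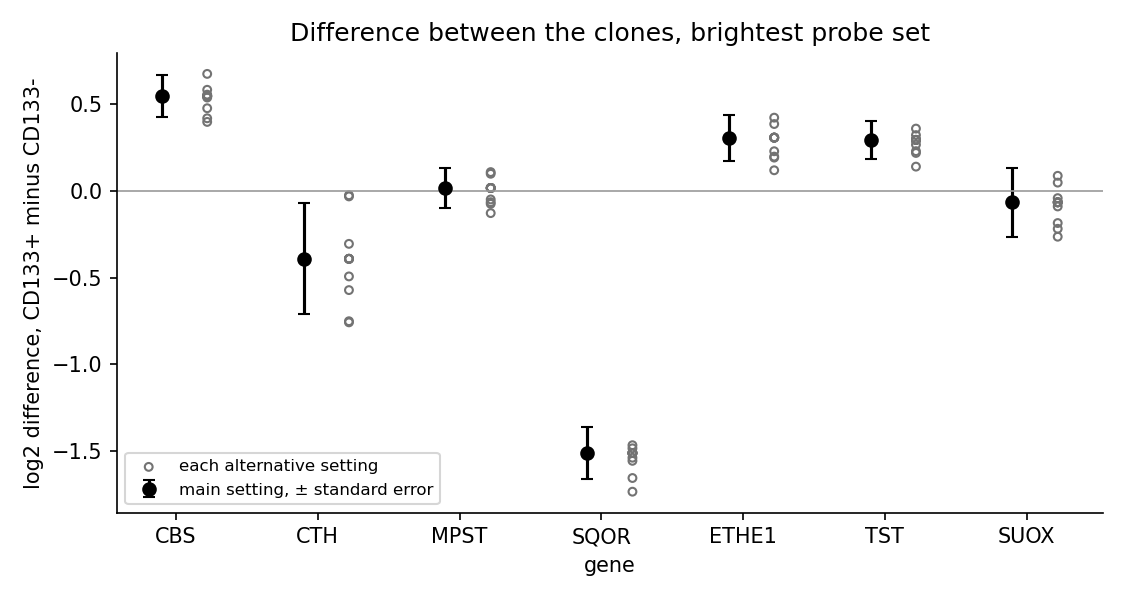
Log2 difference, CD133+ minus CD133- (vertical axis), of the brightest probe set of each of the 7 genes (horizontal axis); filled points are the main fit with its standard error and open points the 12 alternative settings. SQOR stays between -1.73 and -1.47 and CBS between 0.40 and 0.67 over the settings, while the open points of SUOX and MPST fall on both sides of 0.

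**Figure D3:**
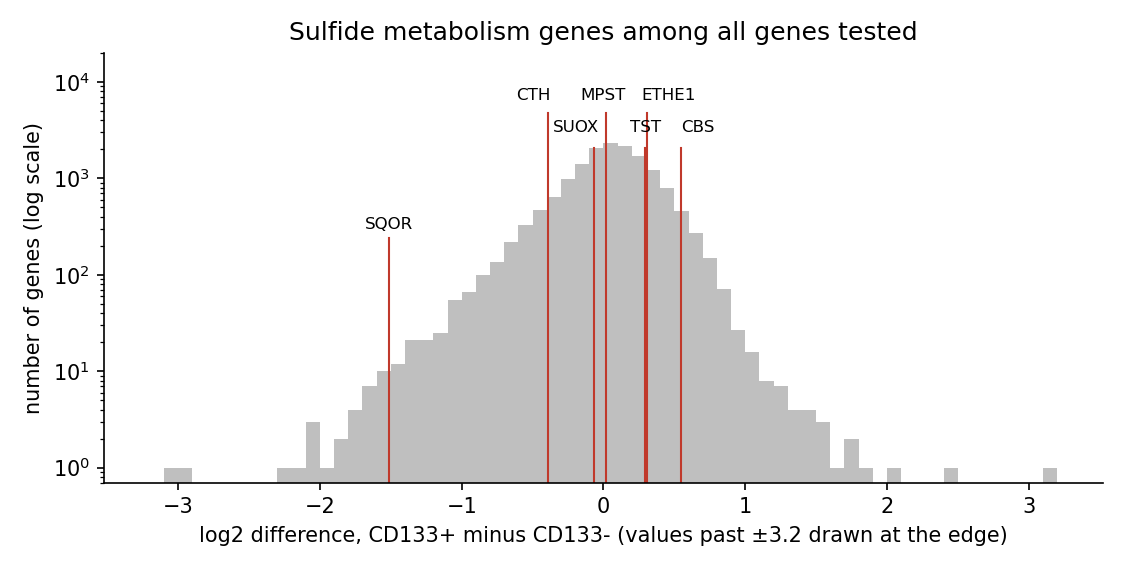
Number of genes (vertical axis, log scale) by log2 difference, CD133+ minus CD133- (horizontal axis), for the 15821 genes tested, with red lines at the 7 sulfide genes. SQOR at -1.51 lies in the sparse lower tail, at place 31, and the other 6 lie between -0.39 and 0.55.

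The genes on either side of SQOR on chromosome 15 did not share the size of its difference, and only AFG2B shared its direction. Of the 3 nearest tested genes before SQOR, none passed. BLOC1S6, a subunit of a lysosome-related organelle complex, was at 0.11 (SE 0.12), SLC30A4, a zinc transporter, at 0.17 (SE 0.20) and AFG2B at -0.46 (SE 0.16). The log2 signal of AFG2B was 8.48 and 8.26 in CD133+ and 9.04 and 8.61 in CD133-, without overlap, as in 51.6% of all genes tested. Of the 3 after SQOR, SEMA6D, a semaphorin, was at 0.34 (SE 0.18) and SLC12A1, the kidney sodium potassium chloride cotransporter, at 0.25 (SE 0.22), and neither passed. SQOR ends at base 45691281, and SEMA6D starts only near base 47184100. MYEF2 rose by 1.52 (SE 0.28, limma adjusted p = 0.0284), with a log2 signal of 6.23 and 6.34 in CD133+ and 5.16 and 4.38 in CD133-, opposite to SQOR.

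**Figure D4:**
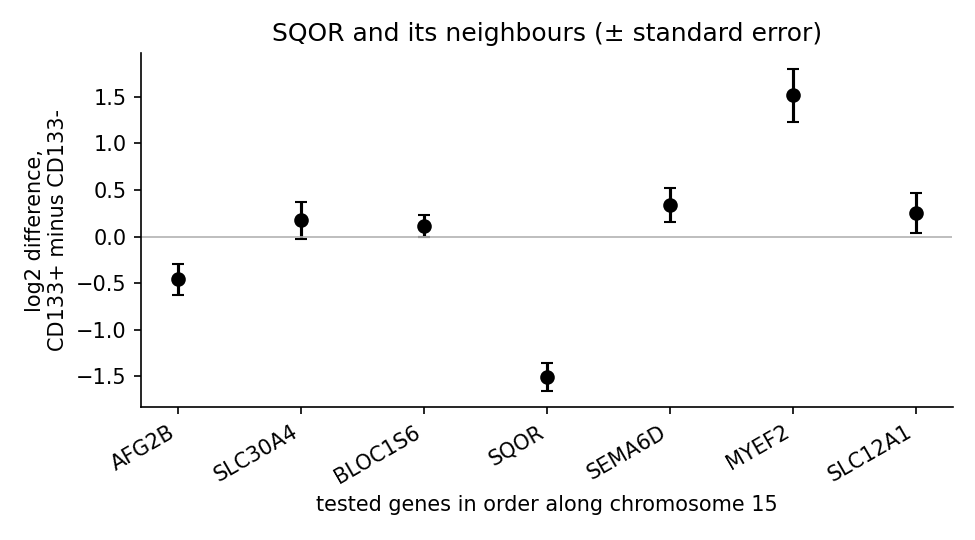
Log2 difference, CD133+ minus CD133- with its standard error (vertical axis), of SQOR and the 3 nearest tested genes on each side in their order along chromosome 15 (horizontal axis, not to scale). SQOR at -1.51 stands between BLOC1S6 at 0.11 and SEMA6D at 0.34.

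The genes whose 4 array values, each centred on the gene's own mean, lay nearest to those of SQOR were CHST3, FAM169A, ARL15, LAMB1 and NIPSNAP3A. Their Euclidean distances were 0.050, 0.10, 0.11, 0.16 and 0.17 log2 units over the 4 arrays. CHST3, a chondroitin sulfotransferase on chromosome 10, had a log2 signal of 5.48 and 5.41 in CD133+ and 6.88 and 6.93 in CD133-. LAMB1, a laminin chain on chromosome 7, had 5.91 and 5.90 against 7.54 and 7.59. FAM169A and ARL15 are both on chromosome 5 and NIPSNAP3A on chromosome 9, with differences of -1.44, -1.40 and -1.37. With 4 arrays in 2 clones, nearness says little more than that these genes differ between the clones by about as much as SQOR.

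The wider sulfur pathways were described with 6 lists of 69 genes that feed, serve or follow the sulfide enzymes, of which 59 were tested. In limma COQ10A rose and COQ10B fell in CD133+, and 57 did not pass; the background was 1.31% of all genes called higher and 2.34% called lower. The median difference over the 59 was -0.034, beside 0.058 over all genes. At an unadjusted p under 0.05 there were 2 higher and 9 lower of the 59, where 10.8% of all genes tested were higher and 9.83% lower at that threshold. The counts at an unadjusted p given for single lists are to be read against the same shares.

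Both called genes came from the list of ubiquinone genes, the electron acceptor that SQOR reduces. COQ10A and COQ10B encode ubiquinone-binding proteins of mitochondria. COQ10A had a log2 signal of 8.92 and 8.79 in CD133+ and 8.15 and 8.08 in CD133-. Its difference was 0.74 (SE 0.12, limma adjusted p = 0.0209), and the clones did not overlap. COQ10B had 8.97 and 8.91 against 9.58 and 9.67, and its difference was -0.68 (SE 0.10, limma adjusted p = 0.0167). The second probe set (1561948_at) was dim, at a mean of 3.65, and had a difference of 0.0068. COQ10A was not called without quantile normalization (0.62, adjusted p = 0.0851) or on arrays centred by their medians (0.54, adjusted p = 0.166), and over its 12 alternatives the adjusted p ran from 0.00146 to 0.166. Neither gene was called without CD133- replicate 1 (adjusted p 0.0917 for COQ10A and 0.0831 for COQ10B) or without CD133- replicate 2 (0.0644 and 0.0650), and COQ10B had 0.247 with the mean of its probe sets, the highest of its 12 alternatives, which began at 0.00139. The other 11 of the 13 ubiquinone genes did not pass, COQ2, the prenyltransferase of ubiquinone synthesis, being at -0.47 (SE 0.11, limma adjusted p = 0.0635). The list's median was 0.11.

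None of the 9 molybdenum cofactor genes tested passed in limma, with 2 lower (9.83% of all genes) and 0 higher (10.8%) at an unadjusted p under 0.05 and a median of -0.060. This cofactor is needed by SUOX. MOCS2, which makes the cofactor's precursor molybdopterin, had the smallest p of the list. Its log2 signal was 6.49 and 6.99 in CD133+ and 7.54 and 7.76 in CD133-, without overlap, or -0.91 as a difference (SE 0.21, limma adjusted p = 0.0573). The gene lies on chromosome 5.

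None of 8 genes of thiosulfate and sulfate handling passed in limma, with 1 lower (9.83% of all genes) and 0 higher (10.8%) at an unadjusted p under 0.05 and a median of -0.080. SLC26A2, a sulfate transporter, had the smallest p, with a log2 signal of 6.65 and 6.36 in CD133+ and 7.18 and 7.36 in CD133-. The difference was -0.77 (SE 0.19, limma adjusted p = 0.0696), and its 3 probe sets shared the sign.

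Among the genes that supply substrates to CBS, CTH and MPST, none passed in limma. The 10 tested genes of the methionine cycle had a median of 0.050 and 2 lower at an unadjusted p under 0.05 (9.83% of all genes), with MTR, methionine synthase, at -0.42 (SE 0.15, limma adjusted p = 0.180). The 11 genes of cysteine supply and catabolism had a median of -0.0076 and 1 higher at an unadjusted p under 0.05 (10.8% of all genes). That was GOT1, the cytosolic aspartate aminotransferase that can also turn cysteine into mercaptopyruvate, at 0.28 (SE 0.11, limma adjusted p = 0.216). Of the 8 sulfur transfer partners 2 were lower at an unadjusted p under 0.05 (9.83% of all genes), with a median of -0.082. NFS1, the cysteine desulfurase of iron-sulfur cluster assembly, had the smallest p, at -0.42 (SE 0.13, limma adjusted p = 0.118), with 7.91 and 7.88 in CD133+ against 8.32 on both CD133- arrays.

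**Figure D5:**
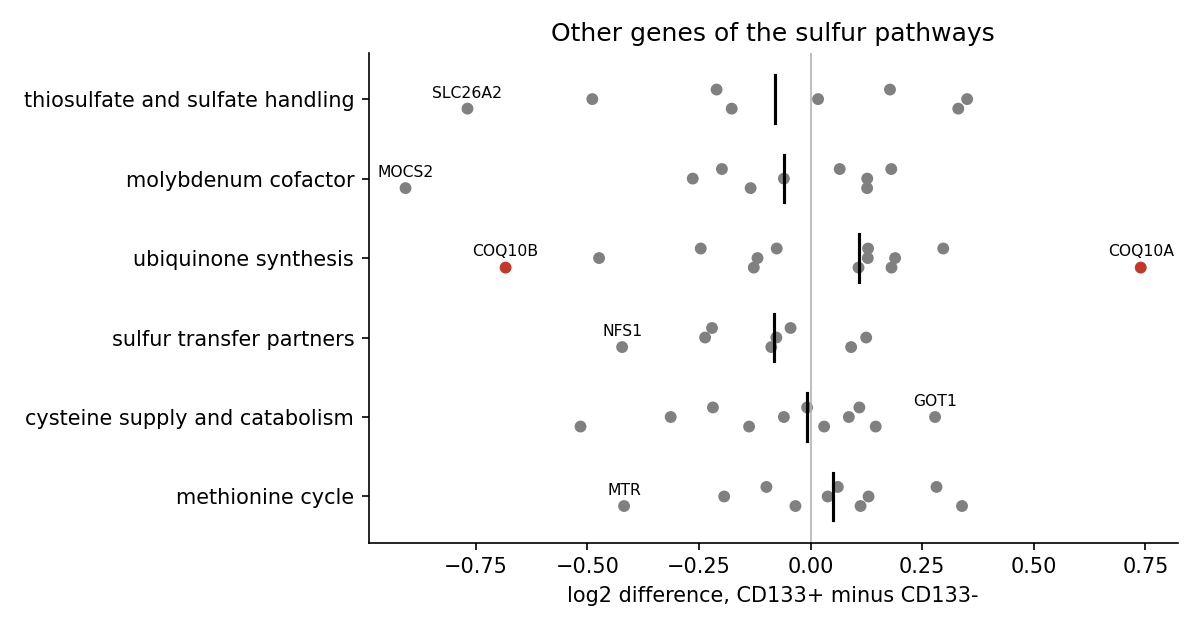
Log2 difference, CD133+ minus CD133- (horizontal axis), of the 59 tested genes in 6 sulfur pathway lists (vertical axis, points spread for legibility), with called genes in red and a black bar at each list's median. The only red points are COQ10A at 0.74 and COQ10B at -0.68, and the medians lie between -0.082 and 0.11.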

How the data were processed

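Gene expression was measured on 4 Affymetrix arrays, 2 of each clone. The authors deposited 1 signal per probe set and array, and the range of 2.52 to 14.57 shows that these deposited values are on the log2 scale. Per the submitters' processing notes they were made with Affymetrix Expression Console; which background correction, normalization and summary it ran is not given in the sources used here, nor its version.

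The 62 control probe sets were left out. Because the deposited array medians spread by 0.14, above a limit of 0.1, the arrays were quantile normalized, which removes any true difference in overall distribution. Probe sets naming 1 gene in the platform annotation (41091; 1801 named several and 11721 none) were reduced to the brightest per gene, and the lowest 20% of genes by level (3956) were left out; all 7 sulfide genes passed. limma 3.58.1 in R 4.3.3 (lmFit, eBayes with trend, prior degrees of freedom 6.17) compared CD133+ with CD133- on the 4 arrays. Benjamini-Hochberg adjustment was over 15821 genes. The procedure was also tried on simulated data, from which no value given here comes. An exact permutation test of 2 against 2 arrays cannot give a p below 0.333, and the number of arrays limits precision (median SE 0.18). Errors after ± are SD. The 95% intervals are unadjusted, reflect the spread between arrays and take no account of how the members were chosen.

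The members and lists were chosen with earlier results of these data known. Genes named were PROM1, the members, called genes of each list or else the smallest p, the 5 profiles nearest to SQOR and 3 neighbours on each side. Alternatives were other scalings, level filters, variance models, probe-set summaries, a replicate block and leaving out each array.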

Additional observations from a re-analysis of the deposited data

How the results depend on the processing

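SQOR kept its direction and its call in all 12 alternatives, with differences from -1.73 to -1.47, and PROM1 did so from 5.12 to 5.40. The topic was selected on this same contrast, so the SQOR calls describe the settings and are not a test of its difference. Without the trend of variance the limma adjusted p of SQOR was 0.0484, just under the threshold, beside 0.00148 for PROM1. Changes of level filter, variance model or block cannot move a difference, so these say nothing about the direction of any gene. For SQOR, with 1 probe set, the mean of probe sets also left it at -1.51. CBS kept its direction in all 12 and its call in 3. ETHE1 and TST passed in 1 alternative, the replicate block. MPST turned to -0.050 as deposited and -0.13 after median centring, and ran from -0.075 to 0.11 when 1 array was left out. SUOX turned to 0.047 with the mean of probe sets and ran from -0.22 to 0.087 when 1 array was left out, and its dimmer probe set had 0.16; the dim COQ10B probe set had 0.0068. The causes were not tested.

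The 577 calls became 12 without the trend of variance, 247 with the mean of probe sets, 185 probe sets one by one and 124 to 706 without 1 array. Of the other sulfur pathway genes, 1 was called higher in the fit described, 0 as deposited, with centred arrays, without the trend or by single probe sets, and 0 to 1 without 1 array. The 1 called lower became 2 as deposited, 3 with centred arrays, 2 with a filter at the median level, 2 with robust settings, 0 without the trend, with the mean of probe sets or by single probe sets, and 0 to 3 without 1 array. Leaving out an array leaves a clone with 1 array, assumed to vary like the other clone.

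With the replicate number as a block, 3030 genes and 6 of the other sulfur pathway genes lower were called. Deviations of same-numbered arrays correlated over genes with r = 0.43, but the labels give no pairing and there are only 2 numbers.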
